A study of Mus musculus with 6 samples.

Results

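The regions described here are the 2375 autosomal 100 kb bins poorest in GATC, the 4-base site at which the Dam methyltransferase acts and at which the genome was cut into the measured fragments. They were chosen from the fragment map alone, before any signal enters: among 23819 bins of chromosomes 1 to 19 with at least 90% of their length covered by fragments, these 9.97% held the fewest fragments, counted by their midpoints. The members had 162 to 217 fragments, and the 21444 other bins 218 to 422. Together they made up 237.5 Mb of the 2382 Mb examined. The fragments, and so the members, were the same in all maps.

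The study used DamID to map contacts of chromatin with the nuclear lamina in mouse embryonic fibroblasts (MEFs), cells cultured from the connective tissue of embryos, of strain C57BL/6 and wild-type genotype. There were 6 libraries and 3 maps, each map set from 1 fusion library over 1 Dam-only library. For LmnA RNAi and LmnC RNAi the fusion was Dam-LmnB1, in cells that carried lentiviral shRNA against lamin A or lamin C, the splice products of Lmna. For LmnB1 RNAi the fusion was Dam-LmnA, so that map's target and fusion both differ from those of the other maps and cannot be told apart. All cells were selected with puromycin and later received lentivirus for Dam alone or for the fusion. No map of cells without shRNA was analysed here, and the files hold neither RNA nor protein levels, so the depletion of the lamins and fibroblast markers could not be checked. With 1 map per knockdown there is no replicate check: no p-value is given, and spreads over chromosomes, bins or fragments show only how values vary along the genome in a single pair of libraries.

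The nuclear lamina is a meshwork of lamin filaments under the inner nuclear membrane. Stretches of chromatin that touch it, the lamina-associated domains (LADs), are largely gene-poor, late-replicating and silent. In DamID, Dam fused to a lamin methylates the adenine of GATC sites in sequence near the lamina. Fragments between methylated sites are then amplified and sequenced, so the spacing of GATC sites sets how finely, and with fragments of what length, a region can be read. Base composition, genes and repeats of the bins were not analysed here.

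Few and long fragments follow from the way the members were chosen, and their values are given as a description. Members held a median of 210 fragments a bin (interquartile range 203 to 214), against 250 in other bins (236 to 267). Over the members' 493214 fragments the median length was 324 bp, against 255 bp over 5447991 fragments of other bins. Fragments over 2000 bp made up 8.92% of fragment length in members and 5.29% in other bins. Fragments up to 100 bp were 20.1% of all fragments in members and 24.9% in other bins.

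The 5 members with the fewest fragments, outside chromosome 18, lay on 5 chromosomes and on both sides of the LAD borders. The barest bin, on chromosome 5 from 47300001 to 47400000 (mm9), had 162 fragments of 614 bp on average. It lay wholly in LADs of all 3 maps, with mean log2 ratios of fusion over Dam-only reads of 1.43 ± 0.52, 0.55 ± 0.50 and 0.20 ± 0.41 (SE over fragments) in the LmnA, LmnC and LmnB1 RNAi maps. A bin on chromosome 1 from 167800001 to 167900000 (173 fragments) also lay wholly in LADs of all maps, with 1.17 ± 0.46, -0.77 ± 0.43 and 0.20 ± 0.36 in the same order. The 3 others lay outside the LADs of every map. The bin on chromosome 3 from 84200001 to 84300000 (168 fragments) had -2.59 ± 0.55, -3.37 ± 0.62 and -2.31 ± 0.57. The bin on chromosome 8 from 126100001 to 126200000 (170 fragments) had -2.29 ± 0.51, -3.94 ± 0.76 and -1.59 ± 0.53. On chromosome 6 from 114500001 to 114600000 (171 fragments) the values were -2.46 ± 0.33, -2.51 ± 0.36 and -1.73 ± 0.29. With fragments read in only 1 library of the pair left out, the chromosome 8 bin had -1.59, -1.27 and -0.85. The chromosome 1 bin then had 0.50, -0.62 and -0.14, so its sign turned under LmnB1 RNAi. The order of the maps changed in the bins of chromosomes 5, 6 and 8, and held in those of chromosomes 1 and 3. The barest bins thus lay on both sides of 0. No bin of chromosome 18 is named, so ranks given here are among the other chromosomes.

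GATC-poor bins lay less often in LADs than other bins in all 3 maps. LADs held 56.3% of the members' fragment length under LmnA RNAi, against 68.0% in other bins. They held 43.7% of it under LmnC RNAi, against 59.2% in other bins, and 45.0% under LmnB1 RNAi, against 60.1% in other bins. The differences were -11.7, -15.6 and -15.0 percentage points, with an SD over 19 chromosomes of 6.00, 6.29 and 6.64. LAD share was lower in members than in other bins on 18 of 19 chromosomes in each map. The exception under LmnA RNAi was chromosome 16 (70.6% in members, 68.1% in other bins), where the difference was -5.33 points under LmnC RNAi and -0.99 under LmnB1 RNAi. The exception in the other maps was chromosome 11, where members and other bins had near-equal shares: 47.0% and 46.1% under LmnC RNAi, and 46.38% and 46.36% under LmnB1 RNAi. Chromosome 17 had the largest difference under LmnA RNAi (-23.7 points, 42.6% in members and 66.4% in other bins) and under LmnC RNAi (-24.5 points), and chromosome 12 under LmnB1 RNAi (-24.4 points).

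**Figure D1:**
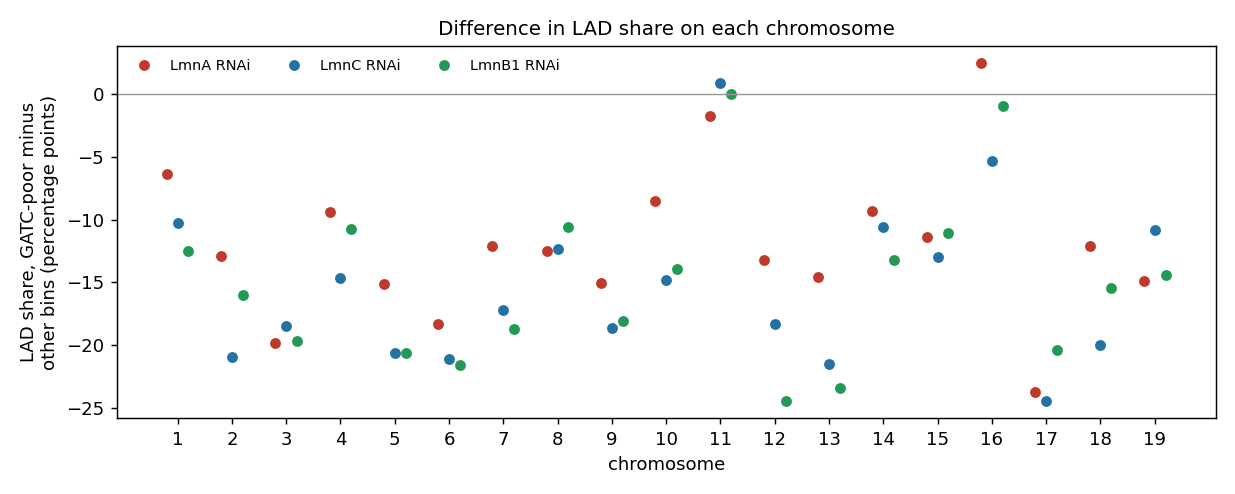
LAD share of GATC-poor bins minus that of other bins on each of 19 chromosomes (x axis), in percentage points (y axis), with 1 point per map. Points lie below 0 on 18 of 19 chromosomes in each map. Chromosome 11 is near 0 in each map, and chromosome 16 is at 2.47 under LmnA RNAi and -5.33 under LmnC RNAi. Chromosome 17 is at -23.7 under LmnA RNAi.

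Most members were either wholly inside or wholly outside LADs. Under LmnA RNAi 1160 members lay wholly in LADs, 830 wholly outside and 385 across a border; 48.8% of members and 61.0% of other bins lay wholly inside, and 34.9% and 26.3% wholly outside. Under LmnC RNAi these numbers were 878, 1152 and 345, with 37.0% of members and 52.2% of other bins wholly inside and 48.5% and 34.7% wholly outside. Under LmnB1 RNAi they were 932, 1132 and 311, with 39.2% of members and 53.4% of other bins wholly inside and 47.7% and 34.3% wholly outside. Bins crossed by a border were 16.2% of members and 12.7% of other bins under LmnA RNAi, 14.5% and 13.1% under LmnC RNAi, and 13.1% and 12.3% under LmnB1 RNAi.

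Signal gave the same order as the LAD lists deposited for the same maps, which do not stand apart from it. The mean log2 ratio of members was 0.02 under LmnA RNAi, against 0.73 in other bins. It was -1.09 under LmnC RNAi, against -0.23 in other bins, and -0.42 under LmnB1 RNAi, against 0.27 in other bins. The differences of -0.72, -0.86 and -0.69 had SDs over 19 chromosomes of 0.27, 0.31 and 0.29, and members were lower on 19 of 19 chromosomes in each map. Chromosome 11 had the smallest difference in each map (-0.09, -0.11 and -0.06). With single-library fragments, those read in only 1 of the pair, left out, the differences were -0.34, -0.46 and -0.31 and members were still lower on 19 of 19 chromosomes. An SE over fragments of about 0.5 (median over members 0.51, 0.51 and 0.50) belongs to each bin's mean.

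Individual members covered most of the range of other bins. Under LmnA RNAi they ran from -5.02 to 3.66 with a median of 0.19, against -5.80 to 5.06 with a median of 1.34 in other bins. Under LmnC RNAi they ran from -5.78 to 2.94 with a median of -1.23, against -6.32 to 4.33 with a median of 0.21 in other bins. Under LmnB1 RNAi the range was -4.90 to 3.50 with a median of -0.53 in members, and -5.52 to 4.35 with a median of 0.66 in other bins. Without single-library fragments the members' ranges were narrower, at -3.45 to 1.94, -3.22 to 1.68 and -2.95 to 1.55 under LmnA, LmnC and LmnB1 RNAi. Those of other bins were then -3.47 to 1.99, -3.66 to 1.88 and -3.26 to 1.69. The distributions overlapped widely and differed mainly in how many bins sat at the upper end: 34.0% of members and 52.5% of other bins lay above 0 under LmnC RNAi, 52.7% and 66.5% under LmnA RNAi, and 41.3% and 58.3% under LmnB1 RNAi.

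**Figure D2:**
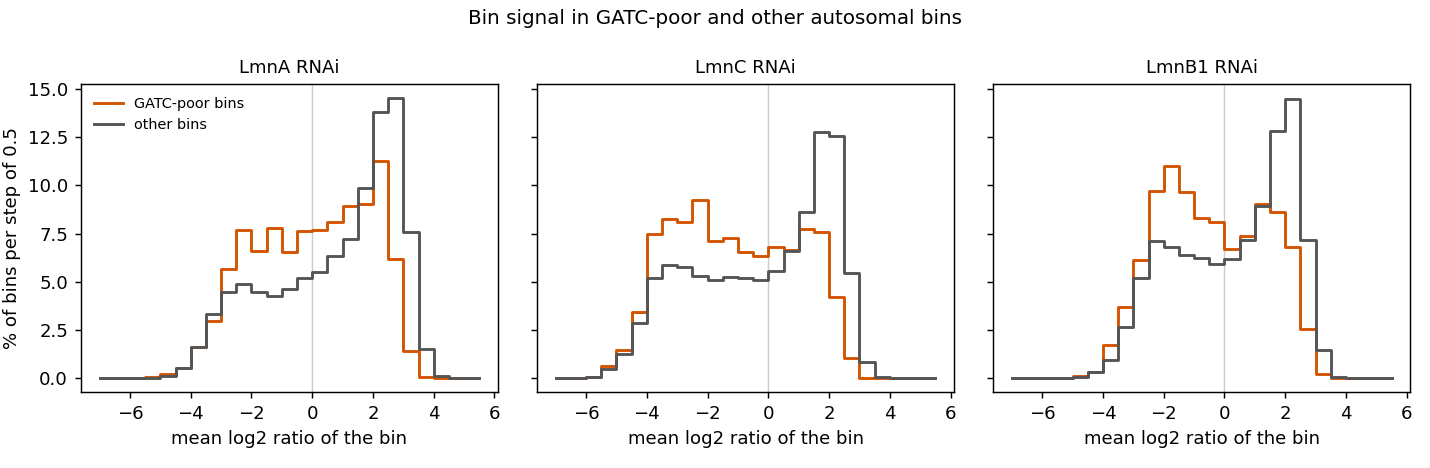
Share of bins (y axis, % per step of 0.5) by mean log2 ratio of the bin (x axis) for the 2375 GATC-poor bins (orange) and the 21444 other bins (grey), 1 panel per map. Both groups overlap over most of the range; the peak of other bins at high ratios is lower among GATC-poor bins.

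The highest and lowest members show that range. The 3 members with the highest mean over the maps were all on chromosome 10 and lay wholly in LADs of each map. The first, from 102500001 to 102600000, had 3.33 ± 0.58 under LmnA RNAi, 2.83 ± 0.51 under LmnC RNAi and 3.50 ± 0.64 under LmnB1 RNAi. The other two, from 113200001 to 113300000 and from 112700001 to 112800000, had 3.43, 2.90 and 3.19, and 3.10, 2.73 and 3.29 in the same order. The 3 lowest were outside LADs of every map. They lay at 53000001 to 53100000 of chromosome 15 (-4.67 ± 0.56, -5.78 ± 0.64 and -4.90 ± 0.56), on chromosome 10 from 119800001 to 119900000 (-5.02 ± 0.51, -5.26 ± 0.56 and -4.40 ± 0.56) and on chromosome 12 from 70900001 to 71000000 (-5.00 ± 0.59, -5.45 ± 0.57 and -3.96 ± 0.50). Without single-library fragments the first of the highest bins had 1.37, 1.56 and 1.47, and LmnC RNAi was then its highest map. The chromosome 15 bin had -2.84, -2.97 and -2.83 without them. The sign held in each of these named bins, but the size of the extremes rested partly on single-library fragments. Chromosome 10 thus held GATC-poor bins of both extremes.

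Across all eligible bins, LAD share and signal climbed with the fragment count, though not at every step, and most steeply in the richer bins. With the bins cut into 10 equal groups by count, the poorest group was the members with 7 bins of the next count. LADs held 56.3% of it under LmnA RNAi, 57.7% of the next group and 63.1% of the sixth. They held 79.4% of the ninth and 91.2% of the richest group. Under LmnC RNAi these shares were 43.7%, 46.3%, 54.9%, 72.0% and 87.7%, and under LmnB1 RNAi 45.0%, 47.1%, 55.3%, 73.3% and 88.6%. From the third to the fifth group they were nearly flat, at 61.6%, 60.1% and 61.2% under LmnA RNAi. Mean signal fell from the third to the fourth group in each map (0.29 to 0.28, -0.75 to -0.78 and -0.17 to -0.19). The poorest and the second group were thus close in every map, while the richest group stood far above. Against the middle of the range alone, with the richest bins left out, the members' LAD share differed by -8.74, -11.98 and -11.4 points.

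**Figure D3:**
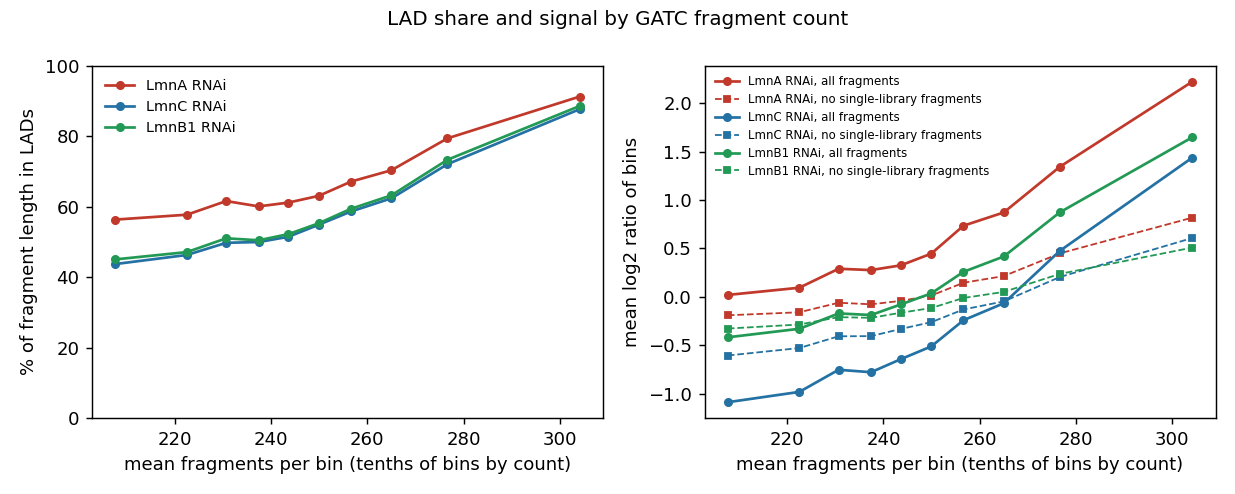
Left, share of fragment length in LADs (%); right, mean log2 ratio of bins with all fragments (circles, solid) and without single-library fragments (squares, dashed), both against the mean number of fragments per bin in 10 equal groups of bins, 1 colour per map. The leftmost points are the poorest group (56.3% in LADs under LmnA RNAi) and the rightmost the richest (91.2%); the curves climb most at the rich end.

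Signal was also set against the fragment count among the members, whose counts span a narrow range by choice (SD 8.49, against 24.6 in other bins), which by itself lowers a correlation. The Pearson correlation of count and signal over the 2375 members was 0.03, 0.04 and 0.02 under LmnA, LmnC and LmnB1 RNAi, against 0.31, 0.33 and 0.32 over other bins; bins share libraries and neighbours, so these are descriptions. The 97 members with fewer than 190 fragments had LAD shares of 44.2%, 33.9% and 32.8% in the 3 maps. Those from 190 to below 200 fragments (291 bins) had 55.3%, 40.3% and 44.0%, those from 200 to below 210 (749 bins) 59.3%, 47.1% and 49.4%, and those from 210 to 217 (1238 bins) 55.6%, 43.1% and 43.6%. The barest bins were thus the lowest, but the shares did not go on climbing with the count. Just inside the limit, 177 members with 217 fragments had 56.3%, 42.0% and 46.6% of their length in LADs, and just outside it 214 bins with 218 fragments had 56.1%, 42.4% and 45.2%.

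Members also stood below their own surroundings. Each was set against the nearest non-member bin on either side, within 500 kb. The median difference was -0.26 under LmnA RNAi, -0.26 under LmnC RNAi and -0.24 under LmnB1 RNAi (log2 ratio, member minus neighbours), and 1472, 1456 and 1476 of the 2375 members were lower than their neighbours. The other 903, 919 and 899 were higher. Over all fragments the medians were below 0 on 19 of 19 chromosomes in each map, with an SD over chromosomes of 0.13, 0.11 and 0.09. Without single-library fragments the medians over members were -0.09, -0.14 and -0.07, smaller than that SD under LmnA and LmnB1 RNAi.

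A wider view gave a trough centred on the members. Averaged over members, the LAD share under LmnA RNAi was 56.3% in the bin itself, 60.4% at 100 kb to either side and 67.6% at 1000 kb. Under LmnC RNAi it was 43.7%, 47.5% and 56.7%, and under LmnB1 RNAi 45.0%, 49.0% and 58.2%. Mean log2 ratios went the same way, at 0.02, 0.28 and 0.69 under LmnA RNAi and -1.09, -0.82 and -0.34 under LmnC RNAi, and at -0.42, -0.18 and 0.22 under LmnB1 RNAi. The fragment count, which is low at the centre by choice, was 208 in the members, 238.5 at 100 kb and 245 at 1000 kb.

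**Figure D4:**
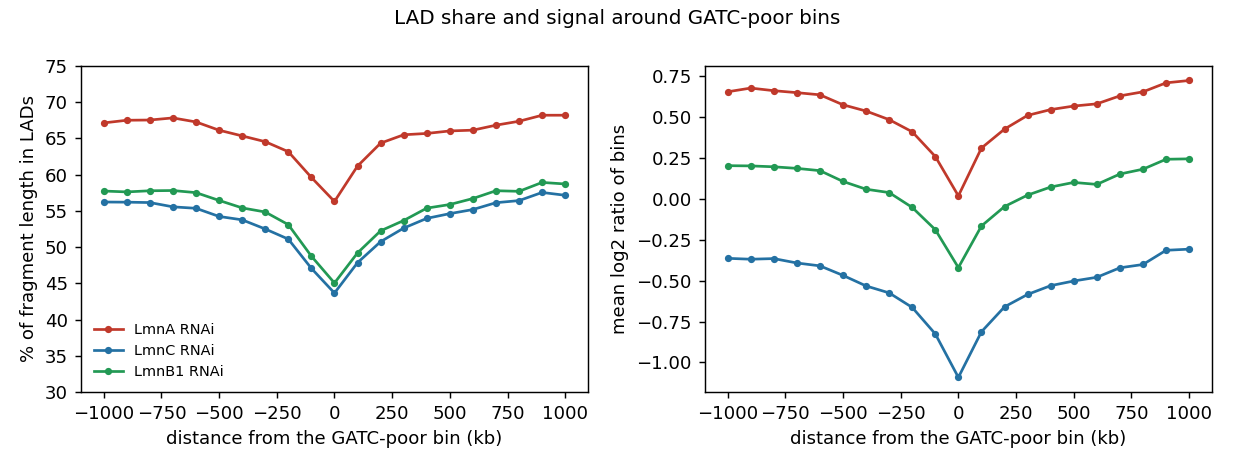
Share of fragment length in LADs (left, %, axis from 30) and mean log2 ratio of bins (right) against distance from the GATC-poor bin in kb, averaged over the members, 1 colour per map. Every curve has its lowest point at the member itself and climbs away from it on both sides.

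Members were grouped by the LADs that held at least 50% of their fragment length. In LADs of all 3 maps were 919 members (38.7%), against 11924 other bins (55.6%). In LADs of none were 977 members (41.1%), against 6329 other bins (29.5%). The remaining 479 members (20.2%) were in LADs of some maps, against 3191 other bins (14.9%). Of the bins in a LAD of at least 1 map, 65.7% of members and 78.9% of other bins were in LADs of all. Bins close to the members in fragment count had similar shares: in the next 2 of the 10 groups by count, 18.5% and 18.8% of bins were in LADs of some maps.

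The largest of these variable classes was that of bins in LADs under LmnA RNAi but not in the others. It held 245 members (10.3%), against 1447 other bins (6.75%), and 9.07% of bins in each of the next 2 groups by count. The mean log2 ratio of these members was 0.15 under LmnA RNAi, -1.63 under LmnC RNAi and -0.95 under LmnB1 RNAi, and -0.20, -0.93 and -0.59 without single-library fragments. The maps differ by an overall offset, with the median eligible bin at 1.20, 0.06 and 0.53 in the same order. With that median subtracted, the means over all fragments lay closer together, at -1.06, -1.69 and -1.48. LADs of all but LmnC RNAi held 96 members (4.04%, against 3.29% of other bins), and LADs of all but LmnB1 RNAi held 72 (3.03%, against 2.67%). The other classes were small: 22 members were in LADs of the LmnC RNAi map alone (0.93%, against 0.69% of other bins), 23 of the LmnB1 RNAi map alone (0.97%, against 0.84%) and 21 of all but the LmnA RNAi map (0.88%, against 0.64%). Whole bins in LADs of 1 map with none of their length in LADs of the others numbered 119 among members for LmnA RNAi (5.01%, against 3.44% of other bins), 5 for LmnC RNAi (0.21%, against 0.14%) and 1 for LmnB1 RNAi (0.042%, against 0.107%).

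Single bins of these kinds had signals near the middle of the range. The barest such member for LmnA RNAi lay on chromosome 16 from 62800001 to 62900000 (176 fragments), with -0.20 ± 0.52 under LmnA RNAi, -1.96 ± 0.58 under LmnC RNAi and -0.53 ± 0.48 under LmnB1 RNAi. The next, on chromosome 3 from 122400001 to 122500000 (180 fragments), had 0.22 ± 0.41, -2.05 ± 0.58 and -1.20 ± 0.42. After centring, LmnA minus LmnB1 RNAi was -0.36 in the chromosome 16 bin, and -0.28 without single-library fragments. LmnA RNAi was thus not its highest map on that scale. In the chromosome 3 bin this difference was 0.74, and -0.004 without such fragments. For the LmnC RNAi map alone, a bin on chromosome 5 from 99800001 to 99900000 had -0.06 ± 0.47, -0.76 ± 0.43 and -0.59 ± 0.42, and one on chromosome 19 from 45500001 to 45600000 had -0.05 ± 0.47, -1.36 ± 0.49 and -0.62 ± 0.47. Both were LADs in the map with their lowest deposited signal, but deposited values carry the offset between maps. With the median bin of each map subtracted, LmnA minus LmnC RNAi was -0.45 and LmnC minus LmnB1 RNAi 0.30 in the chromosome 5 bin. The LmnC RNAi map was thus its highest over all fragments. Without single-library fragments these differences were -0.17 and -0.08, and the LmnB1 RNAi map was its highest. In the chromosome 19 bin the differences were 0.16 and -0.26 over all fragments, and 0.15 and -0.22 without single-library fragments. There LmnC RNAi stayed lowest. The single member in LADs of the LmnB1 RNAi map alone, on chromosome 2 from 8600001 to 8700000, had 0.02 ± 0.55 there, against -0.71 ± 0.58 under LmnA RNAi and -2.14 ± 0.58 under LmnC RNAi.

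Signal was also compared inside single LAD classes, which rest on the signal of the same maps, so that holding the class fixed narrows a difference in itself. In LADs of all maps, members had a mean log2 ratio of 1.86 under LmnA RNAi, against 2.25 in other bins, 0.99 under LmnC RNAi, against 1.47, and 1.38 under LmnB1 RNAi, against 1.70. Members were lower there on 19, 19 and 18 of 19 chromosomes. Without single-library fragments these differences of -0.40, -0.48 and -0.33 shrank to -0.06, -0.16 and -0.02. In LADs of no map, members had -1.84, -2.97 and -2.04, against -1.95, -3.02 and -2.07 in other bins, so they were slightly higher (0.11, 0.05 and 0.04). Without single-library fragments these were -0.02, -0.15 and -0.08, so the sign turned in all 3 maps.

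The kinds of fragment behind the signal differed too. A value equal to the constant of a map (-0.34 under LmnA RNAi, 0.21 under LmnC RNAi and -0.15 under LmnB1 RNAi) stands for no reads, or equal reads, in both libraries. In members 82.5%, 83.7% and 83.2% of fragment length had unequal reads in both libraries, against 78.3%, 79.4% and 78.5% in other bins. Fragments read in 1 library only held 8.77%, 9.11% and 8.20% of length in members, against 11.5%, 11.2% and 10.7% in other bins. Nearly all of that gap lay in fragments read in the fusion library alone, with 5.01%, 3.05% and 3.83% of length in members, against 7.56%, 5.28% and 6.23% in other bins. Those with Dam-only reads alone held 3.76%, 6.06% and 4.37% in members, against 3.96%, 5.91% and 4.44% in other bins.

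These shares followed fragment length closely. Among the members' fragments over 100 and up to 250 bp under LmnC RNAi, 21.0% had fusion reads alone, 27.5% had Dam-only reads alone and 36.2% held the constant. Among those over 1000 and up to 2000 bp these shares were 0.035%, 0.53% and 1.87%. In other bins they were 27.7%, 20.1% and 36.3% in the shorter class and 0.051%, 0.49% and 2.23% in the longer. The mix of fusion and Dam-only reads thus differed at like length too. Of fragments up to 100 bp, 63.3% to 65.2% held the constant in the members, depending on the map. Long fragments were thus nearly all read in both libraries, and members had more of their length in them: 30.7% in fragments over 1000 and up to 2000 bp, against 25.4% in other bins. How much of the members' smaller single-library share goes with length was not tested.

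**Figure D5:**
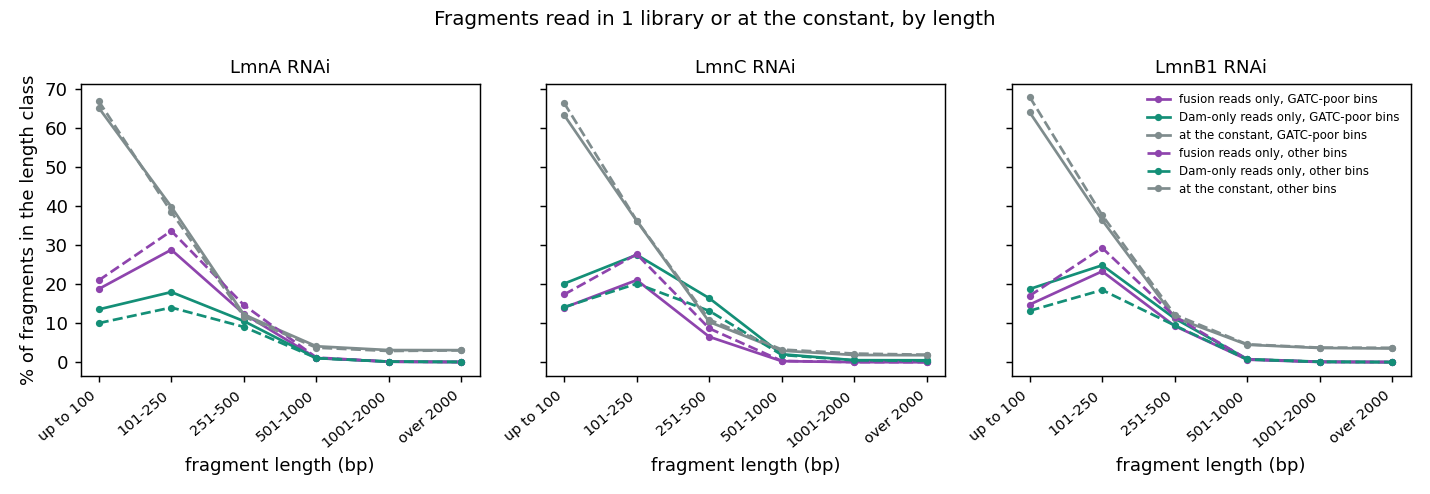
Share of fragments (y axis, %) that had reads in the fusion library alone (purple), in the Dam-only library alone (green) or held the constant (grey), by fragment length in bp (x axis), for GATC-poor bins (solid) and other bins (dashed), 1 panel per map. All 3 kinds are common up to 250 bp and rare above 500 bp in both sets of bins.

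Fragments of one length class were compared, so that members and other bins had like fragment lengths. The members' mean was lower in all 6 length classes and all 3 maps, by 0.26 to 2.61 on the log2 scale over all fragments. Among fragments read in both libraries it was lower in all 18 cases as well, by 0.21 to 0.60. These 18 cases share bins and libraries, and members lay less often in LADs, so they are descriptions and not separate checks. For fragments over 500 and up to 1000 bp read in both libraries, the members' mean was -0.16, -0.64 and -0.34 under LmnA, LmnC and LmnB1 RNAi, against 0.25, -0.13 and 0.03 in other bins. For those over 2000 bp it was -0.15, -0.71 and -0.26, against 0.17, -0.33 and 0.03.

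Lamin A and lamin C knockdown can be compared directly, since the same kind of fusion served in both maps. LADs held 12.6 percentage points more of the members under LmnA RNAi than under LmnC RNAi (SD over chromosomes 4.46), and 8.73 points more of other bins (SD 2.51). The gap was above 0 in members on 19 of 19 chromosomes, from 2.96 points on chromosome 19 to 20.2 on chromosome 13, and larger in members than in other bins on 15. Of 1332 members in LADs under LmnA RNAi, 991 (74.4%) were also in LADs under LmnC RNAi, which was 95.8% of the 1034 members in LADs there. In other bins these shares were 85.3% and 97.8%. The difference between members and other bins averaged 3.34 points over chromosomes with an SD of 3.63. Bins near the members in count had gaps of similar size, at 12.6 points in the poorest of the 10 groups, 11.4 in the second and 11.8 in the third, against 8.17 in the sixth and 3.57 in the richest.

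As deposited, LmnA RNAi minus LmnC RNAi had a median of 0.93 over all eligible bins. Maps were therefore compared after subtracting the median bin of each, and bins past a step of 1 on the log2 scale were counted. The centred difference still had a median of -0.08 in members and -0.21 over all eligible bins, so higher and lower counts are not balanced about 0. Of the members 172 (7.24%) were higher under LmnA RNAi, where 5.16% of all eligible bins were, and 154 (6.48%) were lower, where 9.5% of all were. As deposited, 1310 members (55.2%) were higher and 0 lower, beside 45.9% and 0.0252% of all bins. After quantile normalization 5.81% of members were higher and 3.79% lower, beside 5.02% and 4.24% of all. The SE over fragments of such a difference was 0.73 in the median member, close to the step and to the SD of the difference over members (0.67). Without single-library fragments that SE was 0.19, and 4 members (0.168%) were higher and 0 lower, beside 0.0798% and 0.0378% of all bins.

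The 3 members with the highest centred excess under LmnA RNAi were in its LADs and outside those of the other maps. They lay on chromosome 2 from 79500001 to 79600000 (1.50 ± 0.63 under LmnA RNAi, -2.53 ± 0.63 under LmnC RNAi and -1.42 ± 0.58 under LmnB1 RNAi), at 159200001 to 159300000 of chromosome 1 (0.47 ± 0.51, -3.08 ± 0.56 and -2.09 ± 0.46) and on chromosome 2 from 18200001 to 18300000 (-0.52 ± 0.51, -4.01 ± 0.65 and -2.40 ± 0.54). Their centred differences were 2.88, 2.41 and 2.35, and without single-library fragments 0.69, 1.04 and 0.55, so the direction held in each. The 3 with the largest centred deficit lay on chromosome 17 from 31600001 to 31700000 (-1.43 ± 0.55 under LmnA RNAi, -0.71 ± 0.52 under LmnC RNAi), chromosome 8 from 53700001 to 53800000 (1.30 ± 0.52, 2.01 ± 0.58) and chromosome 16 from 71600001 to 71700000 (1.30 ± 0.52, 1.98 ± 0.47). Their centred differences were -1.87, -1.85 and -1.83, and without single-library fragments -0.24, -0.77 and -0.70. On chromosome 17 the values as deposited then stood the other way round (-0.64 under LmnA RNAi, -0.83 under LmnC RNAi). These bins were picked for their difference, which is no evidence of one.

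Against the LmnB1 RNAi map, both target and fusion differ. LADs held 11.2 points more of the members under LmnA RNAi than under LmnB1 RNAi (SD 4.39 over chromosomes), against 7.90 points more of other bins (SD 1.70), with a larger gap in members on 13 of 19 chromosomes. The centred difference had a median of -0.24 in members and -0.21 over all eligible bins. After centring, 85 members (3.58%) were higher under LmnA RNAi by more than 1, where 3.21% of all eligible bins were, and 301 (12.7%) lower, where 12.7% of all were. As deposited 465 members (19.6%) were higher and 39 (1.64%) lower, beside 20.8% and 1.68% of all bins. After quantile normalization 6.36% of members were higher and 6.53% lower, beside 5.92% and 6.1% of all. Without single-library fragments 2 members (0.0842%) were higher and 8 (0.337%) lower, beside 0.0378% and 0.273% of all. The members' shares were near those of all bins under the first 3 of these scalings. The 2 highest were the bin on chromosome 2 from 79500001, named above, and one on chromosome 10 from 12200001 to 12300000 (1.02 ± 0.55 under LmnA RNAi, -2.09 ± 0.55 under LmnB1 RNAi, and -0.23 and -1.06 without single-library fragments). The 2 lowest were both on chromosome 16. From 33000001 to 33100000 the values were -2.85 ± 0.58 and -1.17 ± 0.54 (-1.35 and -0.77 without such fragments), and from 67400001 to 67500000 they were 0.66 ± 0.53 and 2.33 ± 0.55 (0.36 and 1.03).

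LmnC RNAi and LmnB1 RNAi gave the most similar LAD shares in the members. LAD shares differed by -1.38 points in members (SD 3.06 over chromosomes) and -0.83 in other bins (SD 1.58), within the spread over chromosomes in both. The centred difference had a median of -0.20 in members and -0.04 over all eligible bins. After centring, 44 members (1.85%) were higher under LmnC RNAi by more than 1, where 4.23% of all eligible bins were, and 191 (8.04%) lower, where 6.72% of all were. As deposited, 3 members (0.126%) were higher and 667 (28.1%) lower, beside 0.529% and 22.7% of all bins. After quantile normalization 1.85% of members were higher and 3.24% lower, beside 2.68% and 2.95% of all. Without single-library fragments 0 members and 0% of all bins passed the step either way. The 2 highest were the bin on chromosome 17 from 31600001, named above (-0.71 under LmnC RNAi and -2.39 ± 0.61 under LmnB1 RNAi), and one on chromosome 13 from 31300001 to 31400000 (0.90 ± 0.47 and -0.20 ± 0.44). Their centred differences were 2.14 and 1.57, and without single-library fragments -0.07 and 0.24, so the first changed sign. The 2 lowest outside chromosome 18 lay on chromosome 14 from 79700001 to 79800000 (-4.28 ± 0.59 and -1.71 ± 0.45, and -1.97 and -1.29 without such fragments) and on chromosome 11 from 23300001 to 23400000 (-4.61 ± 0.70 and -2.14 ± 0.57, and -1.81 and -1.28).

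Bin signals of the members followed each other between maps about as closely as those of other bins. Pearson r over bins was 0.942 in members and 0.954 in other bins for LmnA and LmnC RNAi, 0.933 and 0.946 for LmnA and LmnB1 RNAi, and 0.964 and 0.967 for LmnC and LmnB1 RNAi, as descriptions over bins that share libraries.

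Most members stood alone, but members had another member beside them more often than other bins did. Of the members 1625 (68.4%) had no member bin beside them, 528 lay in 264 pairs, and 222 in 68 runs of 3 or more. A neighbouring member was found beside 31.6% of members and 17.0% of other bins. Runs of 3 or more had LAD shares of 53.3%, 33.5% and 39.8% under LmnA, LmnC and LmnB1 RNAi, and lone members 57.0%, 45.9% and 45.7%. By chromosome, members were 5.20% of bins on chromosome 7, the lowest share, and 12.6% on chromosome 16, the highest.

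The longest run was a 700 kb stretch on chromosome 16 from 66800001 to 67500000, with a mean of 201 fragments in its 7 bins. It lay wholly in LADs under LmnB1 RNAi, to 86.9% under LmnA RNAi and to 54.8% under LmnC RNAi. Its mean ratio on the log2 scale was 0.97 under LmnA RNAi (bins from -0.39 to 1.78), 0.26 under LmnC RNAi (-0.99 to 1.43) and 1.73 under LmnB1 RNAi (1.05 to 2.33), and 0.50, 0.19 and 0.60 without single-library fragments. The next, on chromosome 14 from 93800001 to 94300000 (5 bins), was wholly in LADs under LmnA RNAi and to 27.9% and 29.8% under LmnC RNAi and LmnB1 RNAi, with 1.07, -0.98 and -0.09. The third, on chromosome 4 from 8600001 to 9000000 (4 bins), was in LADs to 98.0%, 96.3% and 53.8%, with -0.04, -0.36 and -0.24. The smallest LAD share was under LmnC RNAi in the first 2 runs and under LmnB1 RNAi in the third.

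Members lay somewhat nearer to LAD borders than other bins. The median distance from a bin's centre to the nearest border was 241 kb in members and 311 kb in other bins under LmnA RNAi, 253 and 294 kb under LmnC RNAi, and 267 and 299 kb under LmnB1 RNAi. Outside LADs the medians were 166 and 225 kb, 242 and 292 kb, and 234 and 299 kb, and inside LADs 341 and 354 kb, 275 and 295 kb, and 315 and 299 kb. Taken over bins with their centre in a LAD, the median length of that LAD was 1846, 1551 and 1738 kb for members. It was 1793, 1531 and 1498 kb for other bins. A long LAD counts once for each of its bins here, so these are not the typical lengths of LADs.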

How the data were processed

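Each map rests on 1 Dam-only and 1 fusion DamID library of mouse embryonic fibroblasts. Reads were aligned with Bowtie to mm9, per the submitters' processing notes; how reads were filtered and LADs called is not given in the sources used here. Values deposited by the authors are a log2 ratio per GATC fragment, and from its steps each value is log2 of the fusion over the Dam-only library, both raised by 1e-05, and shifted by 1 constant per map. A size above 12 was read as reads in 1 library only. The deposited LAD lists give starts and ends in bp. Total reads are unknown, because ratios were deposited, so no counting interval is given.

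Fragments on chromosomes 1 to 19 (5972542 of 6581229) were assigned by midpoint to 100 kb bins. The 3 bases between neighbouring fragments counted as covered, and 198 of 24017 bins had under 90% of their length covered and were left out. Bins of equal count were treated alike, so the limit was set at the count whose share was nearest 10%. Bin signal is the length-weighted mean. LAD share is the share of fragment length with its middle in a LAD, and a bin was in a LAD from a share of 50%. Bins named are the 5 with the fewest fragments, the 3 longest runs, the 3 highest and 3 lowest in mean signal, the 3 (LmnA and LmnC RNAi) or 2 (other pairs) highest and lowest in centred difference, and up to 2 wholly in LADs of 1 map alone, fewest fragments first; none is from chromosome 18. Alternatives covered the member share, cover, bin size and grid, count per covered bp, comparison bins, fragment filters, weighting, LAD measure, centring, step and each chromosome left out. The members, lists and settings were chosen with earlier results of these data known. Binning, choice of members, means and neighbour differences were tested on simulated data. Computation used Python 3.11.15, numpy 2.4.6, pandas 2.3.3, scipy 1.17.1 and matplotlib 3.10.9.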

Additional observations from a re-analysis of the deposited data

How the results depend on the processing

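Members stayed below other bins in LAD share and signal under every alternative run, from -8.14 to -34.9 points (LmnA RNAi), -11.6 to -43.9 (LmnC RNAi) and -10.9 to -43.45 (LmnB1 RNAi). The last of each pair is against the richest 10%, where signal differed by -2.20, -2.52 and -2.06, the share at the constant by -2.62, -4.28 and -4.19 points and the single-library share by -5.76, -3.68 and -5.09 points, in map order LmnA, LmnC and LmnB1 RNAi as throughout. The single-library share differed by -2.37 (LmnA RNAi) and -2.14 (LmnB1 RNAi) against the middle 80%, and by -2.42 (LmnC RNAi) with a member share of 5%. In bins of 50 kb the share at the constant differed by -2.12, -2.63 and -2.67 and the single-library share by -3.30, -2.76 and -3.11, and in bins of 200 kb by -1.05, -1.79 and -1.61, and -2.31, -1.61 and -2.14. Signal differed by -0.34, -0.46 and -0.31 without single-library fragments, by -0.38, -0.49 and -0.34 over fragments read in both libraries, and by -0.99, -1.41 and -1.13 as an unweighted mean. The median difference from neighbours was -0.085, -0.14 and -0.074 without single-library fragments, -0.093, -0.14 and -0.085 over fragments read in both libraries, -0.46 (LmnC RNAi) and -0.44 (LmnB1 RNAi) as an unweighted mean, and -0.39 (LmnC RNAi) in bins of 200 kb.

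Counts past the step depended on the processing the most. They are given for LmnA minus LmnC, LmnA minus LmnB1 and LmnC minus LmnB1 RNAi, higher then lower in each, with the share of all bins in brackets. Without single-library fragments they were 0.168% (0.0798%) and 0% (0.0378%), 0.0842% (0.0378%) and 0.337% (0.273%), and 0% (0%) and 0% (0%). Over fragments read in both libraries they were 0.253% (0.139%) and 0.126% (0.147%), 0.0842% (0.0588%) and 0.884% (1.03%), and 0% (0%) and 0% (0%). As an unweighted mean they were 23.7% (14.8%) and 18.5% (27.1%), 18.9% (13.1%) and 23.5% (24%), and 11.4% (16.5%) and 21.9% (15.3%). As deposited they were 55.2% (45.9%) and 0% (0.0252%), 19.6% (20.8%) and 1.64% (1.68%), and 0.126% (0.529%) and 28.1% (22.7%). Past a step of 0.5 they were 20.4% (15.6%) and 25.6% (32.4%), 13.5% (13.7%) and 35.4% (33.4%), and 10.7% (19.4%) and 30.2% (24.4%). After quantile normalization, 3.79% (4.24%) were lower in the first pair, 6.36% (5.92%) higher and 6.53% (6.1%) lower in the second and 3.24% (2.95%) lower in the third. In bins of 50 kb, 11.2% (14%) were lower in the first pair, 5.43% (6.69%) higher in the second and 4.11% (8.02%) higher in the third. In bins of 200 kb, 4.69% (2.98%) were higher in the first pair, and 0.586% (1.91%) higher and 4.44% (3.86%) lower in the third. The causes were not tested.

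Leaving out each chromosome in turn kept the LAD difference between -12.4 and -11.1, -16.4 and -15.1, and -15.8 and -14.5 points. Keeping bins tied at the limit was added after seeing the data. No paired analysis was possible because each group had 1 library. Total depth is unknown, and a bin's SE over fragments leaves out the spread between cultures.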

Other observations

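GATC-poor bins were not spread evenly along the chromosomes. The first 10 Mb of each chromosome held 144 members (6.06%), against 8.14% of other bins, and the last 10 Mb held 237 (9.98%), against 7.55% of other bins.

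Very long fragments were rare: 32 of the members' fragments exceeded 5000 bp, against 84 in other bins. The longest fragment of the members, chosen after its values were seen, spanned 9221 bp on chromosome 17 from 29237413 to 29246634 (mm9), with log2 ratios of -1.05 under LmnA RNAi, -1.80 under LmnC RNAi and -1.19 under LmnB1 RNAi.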
